A study of Mus musculus with 32 samples.

Results

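Plasma cells were compared with light zone germinal centre B cells of WT mice, to describe what differs between antibody-secreting cells and the germinal centre cells from which such cells can arise. The 8 libraries were taken by their labels, 4 titled plasma cells WT and 4 titled light zone WT, out of 32 libraries in the series. The series profiled naive, dark zone and light zone B cells as well as plasma cells, from mice with or without activated PIK3CD signalling (aPIK3CD), 4 libraries in each of 8 groups. Both groups compared here came from the spleens of C57BL/6 mice with the genotype AID-cre WT, aged 12 weeks and taken 14 days after an intraperitoneal injection of NP-CGG in alum, a hapten on a carrier protein to which B cells respond with T cell help. The cre recombinase is shared by every group, WT included. Each library was made from 500 sorted cells with the SMART-Seq v4 kit for low RNA input. The sort markers are not given in the sources used here. The labels do not say whether replicates came from separate mice, so p-values measure the spread between these libraries.

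In the light zone of the germinal centre, B cells that have mutated their antigen receptor take up antigen from follicular dendritic cells, present it on MHC class II and compete for help from T follicular helper cells through CD40. Some of them return to the dark zone to divide and some leave as plasma cells. Plasma cell differentiation is driven by the transcription factors Irf4, Prdm1 and Xbp1, which act against the B cell programme of Pax5, Bach2 and Bcl6, and Xbp1 together with the unfolded protein response enlarges the secretory pathway.

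Total gene counts ranged from 902088 to 1835558 in the light zone libraries and from 473149 to 704361 in the plasma cell libraries, so every plasma cell library was shallower than every light zone library. Between 9085 and 10353 genes had at least 10 counts in a light zone library, and between 7016 and 8033 in a plasma cell library. The first principal component of the 8 libraries carried 78.1% of the variance and separated the groups, and the second carried 5.69% and set plasma cell replicate 2, the shallowest library, apart. Of 9037 genes tested with edgeR's quasi-likelihood test, 2541 (28.1%) were higher in plasma cells and 2555 (28.3%) were lower at a Benjamini-Hochberg adjusted p below 0.05, together 5096 (56.4%). Of these, 1761 were higher and 1757 lower by more than 2-fold. In 4635 genes (51.3%) the values of the groups did not overlap, with plasma cells above the light zone in 25.5% of genes tested and below it in 25.8%. With every library thinned to the smallest total, 4017 genes passed. The median log2 fold change over all genes tested was -0.04, and the counts of list members below are to be read against these shares. The scaling of library sizes (TMM) centres the bulk of genes near 0, so this median and the balance of rises and falls depend on it. Its factors were 1.15 to 1.18 in the light zone and 0.848 to 0.890 in plasma cells. Small fold changes rest on this scaling most, and no alternative left such scaling out. In bulk samples, fewer cells of a type and less RNA per cell cannot be told apart. Values are in CPM, counts relative to scaled library sizes, fold changes are log2 of plasma cells over light zone, and SE is the standard error of that log2 value.

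The transcription factors of plasma cells were higher in the libraries labelled plasma cells. Of 15 tested genes in this list 12 rose and 0 fell, with a median log2 fold change of 2.86. Prdm1, the repressor that shuts down the B cell programme, measured 8.29, 14.4, 40.9 and 10.9 CPM in the light zone libraries and 305, 355, 346 and 365 CPM in the plasma cell libraries (log2 fold change 4.12, SE 0.36, adjusted p = 2.49e-07). Irf4, which acts at high dose in plasma cells, measured 42.7, 90.3, 104.6 and 93.3 CPM in the light zone and 907, 1280, 911 and 964 CPM in plasma cells (3.62, SE 0.24, adjusted p = 1.22e-08). Xbp1, the factor of the secretory programme, measured 295, 288, 317 and 162 CPM in the light zone and 3893, 3978, 3340 and 4028 CPM in plasma cells (3.84, SE 0.19, adjusted p = 6.54e-10). For none of these 3 genes did the groups overlap, and light zone replicate 3 was the highest of its group for each.

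Creb3l2, a membrane-bound relative of Atf6 that is cleaved in the Golgi, rose from 2.87 ± 2.77 to 408.5 ± 41.7 CPM (SD, n = 4; log2 fold change 7.13). Fam46c, a poly(A) polymerase that stabilises secretory messages, rose from 38.2 ± 19.5 to 1778 ± 128 CPM (5.52), and Ell2, an elongation factor that favours the secreted immunoglobulin message, from 90.8 ± 15.2 to 655.5 ± 80.4 CPM (2.86). The members that did not pass were Zbtb20 (-0.26), Ikzf3 (-0.01) and Zfp36l1 (0.10).

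**Figure D1:**
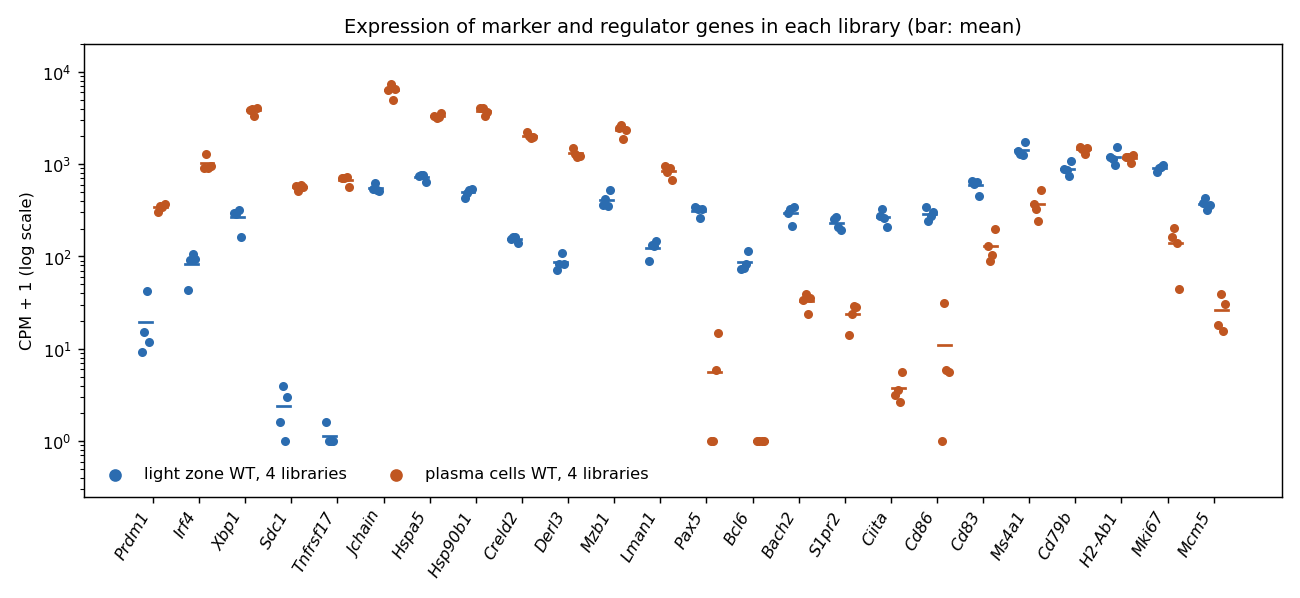
CPM plus 1 on a log axis in each of the 4 light zone (blue) and 4 plasma cell (orange) libraries, for regulators, markers, secretory genes and cell cycle genes; bars are group means. The groups lie apart for every gene drawn except H2-Ab1.

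Transcription factors of B cells and of the germinal centre moved the other way. Of 24 tested, 19 fell and 1 rose, with a median of -1.98. Pax5, which maintains B cell identity, measured 340, 324, 258 and 322 CPM in the light zone and 0, 0, 4.92 and 13.8 CPM in plasma cells (log2 fold change -6.00, SE 0.42, adjusted p = 2.02e-08). Bcl6, the master regulator of the germinal centre, measured 72.9, 74.8, 81.3 and 113 CPM in the light zone and had 0 counts in all 4 plasma cell libraries, at least 52.1-fold lower taking 3 counts over the group as the limit of 0. Bach2, which delays plasma cell differentiation, measured 292, 325, 215 and 339 CPM in the light zone and 32.5, 38.3, 23.0 and 34.4 CPM in plasma cells (-3.21, SE 0.22). All 3 factors were lower in every plasma cell library than in any light zone library, and of the 3 Bach2 alone had counts in each plasma cell library.

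Spib, an Ets factor of B cells, fell from 276 ± 55.7 to 3.46 ± 2.95 CPM (log2 fold change -6.19), Ebf1, which acts with Pax5, from 319 ± 44.3 to 37.7 ± 7.47 CPM (-3.09), and Bcl11a from 298 ± 75.9 to 6.72 ± 2.84 CPM (-5.52). Mybl1, a germinal centre factor of the Myb family, had 1416 counts in the light zone and 1 in plasma cells, a ratio of 415.5 in CPM with a 95% counting interval from 74.5 to 16420. The exception was Tcf4, an E protein that is also a dendritic cell factor, which rose (0.55).

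Genes of the germinal centre state fell as a group, 18 of 22 tested with 3 rising and a median of -2.78. Rgs13, a regulator of chemokine receptor signalling, measured 455, 362.5, 399 and 463.5 CPM in the light zone and had 0 counts in every plasma cell library, at least 262-fold lower. S1pr2, the receptor that confines cells to the germinal centre, fell from 230.2 ± 35.7 to 22.9 ± 6.95 CPM (log2 fold change -3.31), and Klhl6 from 715 ± 105 to 23.2 ± 14.8 CPM (-4.88). The 3 members that rose were Pafah1b3, Ccdc88a and Pdcd1lg2 (2.24, 1.42 and 1.22).

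Activation genes of the light zone were split. Of 27 tested genes of CD40 and NF-kB signalling 17 fell and 7 rose, with a median of -0.94, while their summed level was 3986 to 4395 CPM in the light zone and 3813 to 4340 CPM in plasma cells, ranges that overlap. Cd86, a costimulatory ligand that marks the light zone, measured 341, 239, 271 and 304 CPM in the light zone and 0, 30.7, 4.92 and 4.59 CPM in plasma cells (log2 fold change -4.97, SE 0.46, adjusted p = 3.76e-07). Cd83, the other surface marker of the light zone, measured 659, 615.5, 645.5 and 453.5 CPM in the light zone and 129.9, 89.4, 103 and 195 CPM in plasma cells (-2.201, SE 0.22, adjusted p = 8.33e-07). The plasma cells thus retained a larger share of the light zone level for Cd83 than for Cd86, in each case without overlap between the groups.

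Cd40, the receptor for T cell help, fell from 280 ± 29.3 to 30.6 ± 11.6 CPM (-3.18), Rel, an NF-kB subunit, from 252 ± 23.7 to 22.2 ± 7.95 CPM (-3.54), Slamf1 from 243 ± 44.2 to 7.79 ± 6.00 CPM (-4.93), and Myc, which T cell help induces, from 145 ± 28.9 to 37.9 ± 9.84 CPM (-1.94). Among the rises was Nfkbia, the inhibitor and target of NF-kB, which went from 423 ± 25.3 to 1368 ± 69.1 CPM (1.69, SE 0.11). Ccnd2, a D-type cyclin, rose from 232 ± 42.9 to 790 ± 167 CPM (1.77).

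Surface receptors that mark plasma cells or carry survival signals rose in 21 of 23 tested genes, with a median of 2.44. Tnfrsf17 encodes BCMA, the receptor through which APRIL sustains plasma cells. It measured 704, 713, 719 and 567 CPM in plasma cells and had 1 count over the 4 light zone libraries against 1289, a ratio of 4393 with a 95% counting interval from 787 to 173600. Sdc1, the syndecan CD138 used to identify plasma cells, measured 0.59, 2.99, 0 and 1.98 CPM in the light zone and 582, 516, 597.5 and 571 CPM in plasma cells (log2 fold change 8.70, SE 0.35, adjusted p = 1.23e-10). Cd93, an adhesion receptor of plasma cells, measured 2.96, 1.79, 0.95 and 10.9 CPM in the light zone and 275, 255.5, 309 and 339.5 CPM in plasma cells (6.40, SE 0.39, adjusted p = 5.54e-09). These 3 receptors stood near 0 in the light zone, whereas Slamf7, another surface marker of plasma cells, was already at 261 ± 51.6 CPM there and rose to 1421 ± 15.3 CPM (2.44). The BAFF receptor Tnfrsf13c (-0.61) and Bmpr1a (-1.25) fell.

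The B cell receptor complex was divided between its signalling chains and its coreceptors. Of 36 tested genes 22 fell and 7 rose, with a median of -1.22. Cd79a and Cd79b, the signalling chains of the receptor, rose from 512 ± 71.9 to 1055 ± 51.6 CPM (log2 fold change 1.04, SE 0.13) and from 893 ± 143 to 1443 ± 115 CPM (0.69, SE 0.13). Deposited counts stayed below about 2 per base of exon, as described for immunoglobulin genes below. On this scale Cd79a held up to 0.640 in the light zone and 0.410 in plasma cells, and Cd79b up to 1.09 and 0.542. The light zone lay nearer to that level for both chains. Without genes above 0.5 counts per base in any library, both left the list, in which 5 of 32 tested genes then rose and 21 fell. Ms4a1, which encodes CD20, fell from 1413 ± 231.5 to 365 ± 116 CPM (-1.96), and Cr2, the complement receptor CD21, also fell (-4.00). Cd22, an inhibitory coreceptor, measured 551, 583, 517 and 600.4 CPM in the light zone and 0, 2.55, 3.28 and 2.29 CPM in plasma cells (-7.98, SE 0.29, adjusted p = 5.36e-11). Of these 3 falling genes Cd22 had the lowest level in plasma cells relative to its own light zone level.

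The MHC class II pathway fell in 11 of 16 tested genes and rose in 3, with a median of -1.45, yet its summed level was 6609 to 8608 CPM in the light zone and 6810 to 8683 CPM in plasma cells. Ciita, the transactivator on which class II transcription depends, measured 276, 325, 259 and 206 CPM in the light zone and 2.17, 2.55, 1.64 and 4.59 CPM in plasma cells (log2 fold change -6.60, SE 0.32, adjusted p = 5.98e-10). The 2 chains of the I-A molecule differed. H2-Aa, the alpha chain, measured 965, 931, 807 and 1189 CPM in the light zone and 377, 309, 350 and 312 CPM in plasma cells (-1.53, SE 0.14), while H2-Ab1, the beta chain, measured 1180, 1144, 968 and 1527 CPM against 1202, 1190, 1032 and 1246 CPM (-0.04, SE 0.14, adjusted p = 0.804). The H2-Ab1 ranges overlapped and its sign changed in 4 of 16 alternatives. Cd74, the invariant chain, rose from 1344 ± 298 to 3159 ± 494 CPM (1.23), and Ctss, the protease that degrades it, from 419 ± 17.4 to 2218 ± 336 CPM (2.404). The deposited counts of genes stayed below about 2 per base of exon, very short genes left out, as described for immunoglobulin genes below. Cd74 held up to 1.31 counts per base in the light zone and 0.924 in plasma cells, with summed counts of 8292 and 5864. H2-Ab1 held up to 0.792 and 0.245, with summed counts of 7478 and 2193, and H2-Aa up to 0.447 and 0.0561. In each of these genes the light zone lay nearer to that level. Without genes above 0.5 counts per base in any library the list had 9 falls and 1 rise, that of Rfxap (0.56 in the fit of all genes), in 11 tested genes. H2-Oa, a chain of the inhibitor of peptide loading, fell from 204 ± 22.9 to 2.44 ± 2.01 CPM (-6.22).

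Immunoglobulin genes and the joining chain took 0.929%, 1.06%, 1.01% and 0.929% of counts in the light zone and 11.2%, 11.6%, 9.12% and 10.95% in plasma cells. The means were 0.981% ± 0.0639 and 10.7% ± 1.09 (SD, n = 4; two-sided exact permutation p = 0.0286, the smallest that 4 against 4 allows). Of 13 constant genes, joining chain included, 12 rose and Ighd fell. Jchain, which joins IgM and IgA into polymers, rose from 547 ± 49.2 to 6288 ± 992 CPM (log2 fold change 3.52, SE 0.14). Igha, the IgA heavy chain, measured 32.6, 27.5, 55.2 and 50.6 CPM in the light zone and 5077, 6037, 3941 and 5228 CPM in plasma cells (6.93, SE 0.24, adjusted p = 4.81e-11). Ighd, the IgD heavy chain, measured 171, 263, 319 and 360.2 CPM in the light zone and 17.3, 10.2, 46.0 and 11.5 CPM in plasma cells (-3.59, SE 0.37). Of the 13 genes Igha had the highest log2 fold change and Ighd was the only one below 0. Both the shares and this ranking are of deposited counts, which did not pass about 2 per base of exon, as described below. The rise of Ighe rested on plasma cell replicate 1, at 2414 CPM, while the other plasma cell libraries held 0, 1.64 and 4.59 CPM and the light zone 51.5, 19.1, 17.1 and 0 CPM. With all libraries its log2 fold change was 4.71 (SE 1.48, adjusted p = 0.0142), and without that library it was -3.37 (adjusted p = 0.0394).

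With very short genes left out, the deposited counts did not pass about 2 per base of a gene's exons in any of these libraries. Immunoglobulin genes came close to that level. The highest value was 1.96 counts per exonic base, for Igkc in plasma cell replicate 3. Igkc, the kappa constant gene, held 1.70, 1.75, 1.76 and 1.55 counts per base in the light zone and 1.95, 1.96, 1.96 and 1.94 in plasma cells, so its summed counts of 3600 and 4157 lay close together although its log2 fold change in CPM was 1.93. Ighm held 0.949 to 1.40 counts per base in the light zone and 1.76 to 1.82 in plasma cells, and Igha 0.0172 to 0.0435 against 0.854 to 0.900. Ighg1, the IgG1 heavy chain, overlapped on this scale, at 0.192 to 0.825 in the light zone and 0.230 to 0.691 in plasma cells, while its CPM rose (1.51, SE 0.33, adjusted p = 0.00123). In plasma cells 45 to 66 genes lay above 1 count per base, 44 to 63 of them immunoglobulin genes, and in the light zone 7 to 11 genes, of which 1 to 3 were. Without the genes above 0.5 counts per base in any of the 8 libraries, Ighd was the 1 constant gene left to test, so all 12 rises of constant genes came from genes that lay above it in at least 1 library. Which step of the processing sets this level was not tested.

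**Figure D2:**
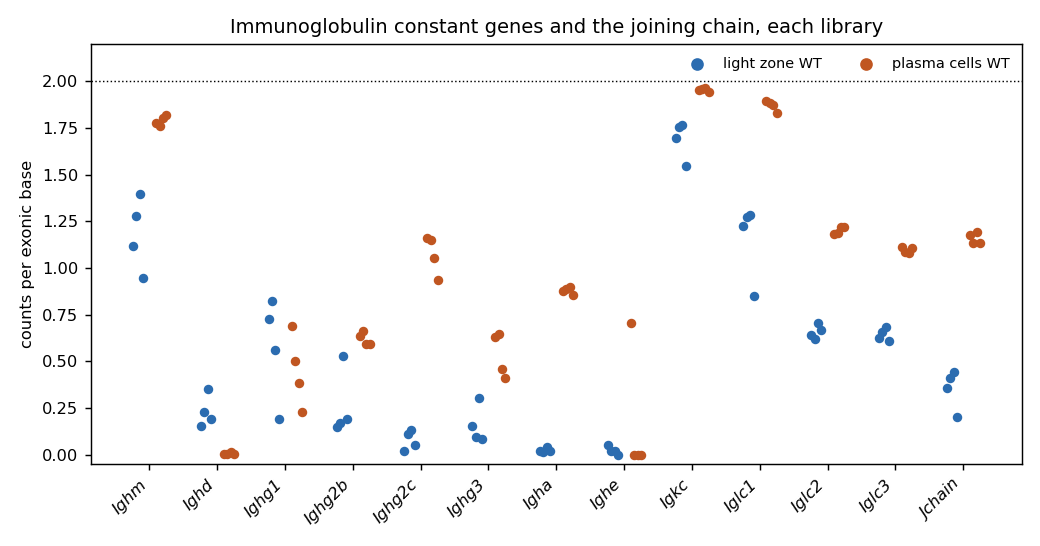
Deposited counts per base of exon for immunoglobulin constant genes and the joining chain in each light zone (blue) and plasma cell (orange) library, with a dotted line at 2. Igkc lay at 1.55 to 1.76 in the light zone and 1.94 to 1.96 in plasma cells, and Ighe was above 0.5 in 1 plasma cell library.

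Variable segments were counted as well. Enough counts for a test were found in 60 of 113 heavy chain, 75 of 100 kappa and 3 of 3 lambda variable segments. Of the 60 heavy chain segments 60 rose (median 6.60), of the 75 kappa segments 74 rose (4.55) and of the 3 lambda segments 3 rose (3.49). A segment could enter the test through its counts in plasma cells alone, so these numbers of rises are in part set by the filter. Between 2 and 38 heavy chain segments had at least 10 counts in a light zone library and between 73 and 80 in a plasma cell library. Ighv1-72, the segment known as VH186.2 that dominates the response to NP in this strain, measured 2.37, 2.39, 3.81 and 0.99 CPM in the light zone and 95.3, 51.1, 23.0 and 61.9 CPM in plasma cells (4.42, SE 0.52, adjusted p = 4.29e-06). Iglv1, the lambda segment that pairs with it, rose from 195 ± 10.5 to 1410 ± 240 CPM (2.85, SE 0.15). It held up to 0.977 counts per base in the light zone and up to 1.71 in plasma cells, while Ighv1-72 held up to 0.0202 and 0.111. In plasma cell libraries 29 to 38 kappa, 5 to 15 heavy chain and all 3 lambda segments lay above 1 count per base, and in light zone libraries 0 of any class did, so for these segments plasma cells lay nearer to the limit of about 2 than the light zone did. Segments of near-identical sequence share reads and mutated segments may align less well, so single segments are uncertain.

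Genes of the secretory pathway rose almost throughout. At the entry to the endoplasmic reticulum (ER), 23 of 24 tested genes of the translocon and signal peptidase rose, with a median of 2.04, and Sec61a2 fell. Sec61a1, which forms the channel, rose from 77.3 ± 11.6 to 432.5 ± 12.0 CPM (log2 fold change 2.47), Ssr4 of the translocon-associated complex from 173 ± 19.5 to 1333 ± 148 CPM (2.94), and Spcs1 of the signal peptidase from 137 ± 9.14 to 1144 ± 130 CPM (3.06). Of 46 tested genes of ER folding, the unfolded protein response and ER degradation, 45 rose and 0 fell, with a median of 2.51, and the remaining one was Uggt1 (0.28). Hspa5, the chaperone BiP, measured 737, 755, 770 and 641 CPM in the light zone and 3315, 3122, 3270 and 3542 CPM in plasma cells (2.19, SE 0.11, adjusted p = 8.22e-10). Hsp90b1, the chaperone GRP94, measured 430, 483, 526 and 531 CPM in the light zone and 4044, 4095, 3327 and 3705 CPM in plasma cells (2.94, SE 0.12). Creld2, a chaperone induced by ER stress, measured 152, 160, 163 and 139 CPM in the light zone and 2217, 2016, 1906 and 1945 CPM in plasma cells (3.71, SE 0.12). The libraries within each group lay close together for all 3 chaperones and the groups were far apart.

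Pdia4, a disulfide isomerase, rose from 137 ± 46.5 to 2347 ± 307 CPM (4.08), Derl3, a component of ER degradation, from 85.2 ± 15.5 to 1309 ± 138.5 CPM (3.94), and Mzb1, a cofactor of GRP94 in antibody folding, from 411 ± 78.6 to 2341 ± 318 CPM (2.51). N-glycosylation genes rose in 30 of 38 tested, with a median of 1.76 and Tusc3 as the fall. Krtcap2 and Ddost, subunits of the oligosaccharyltransferase that attaches N-glycans, rose by 2.74 and 2.68. Further along, 47 of 51 genes of transport between ER and Golgi rose, with a median of 1.57 and Sec24b as the fall. Lman1, a cargo receptor, rose from 124 ± 24.9 to 833 ± 119 CPM (2.75), and Tmed3, a member of the p24 family of coated vesicles, from 46.5 ± 10.2 to 663 ± 50.8 CPM (3.81).

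**Figure D3:**
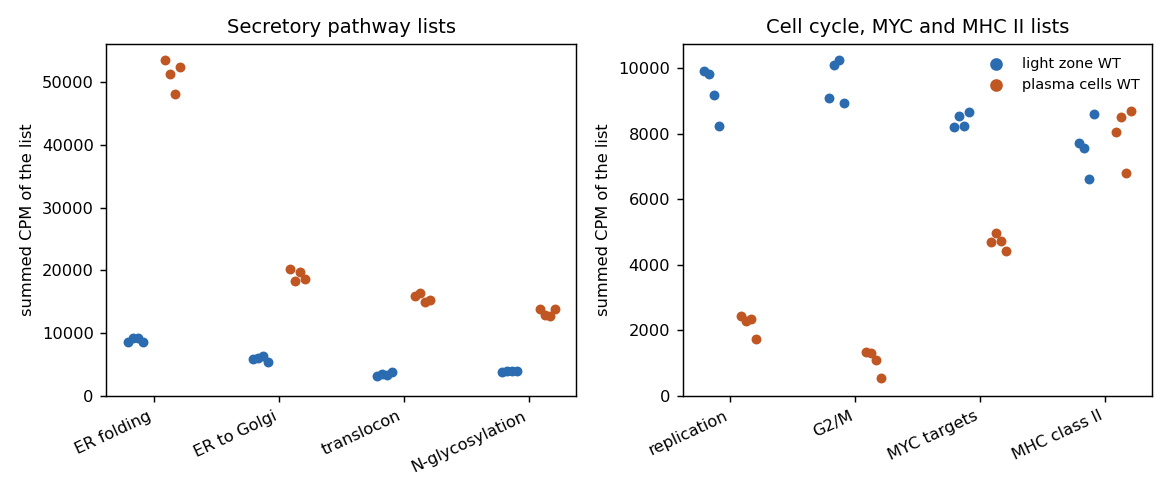
Summed CPM of 8 gene lists in each light zone (blue) and plasma cell (orange) library, with secretory lists on the left and cell cycle, MYC target and MHC class II lists on the right. The ER folding list lay at 8508 to 9208 CPM in the light zone and 48060 to 53590 CPM in plasma cells, and the MHC class II sums overlapped.

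The promoters of the ER folding list were searched for the ER stress response element (ERSE), the motif bound by Atf6 and NF-Y, because its members moved together. RefSeq windows on build GRCm38.p6, from 250 bases before to 50 after each annotated start, were matched by gene to 42 members of the list. The letters CCAAT, 9 bases of any kind and CCACG, in this order, were searched on both strands. They were found in 39 of 32851 windows (0.119%), in 0.146% of the windows of genes tested and in 10 of 50 windows of the list (20%). These 10 windows were those of Calr, Canx, Creld2, Derl3, Dnajc3, Ero1lb, Hsp90b1, Hspa5, Pdia6 and Syvn1. The 10 genes rose with a median of 2.14, and the 31 tested members without a match had a median of 2.51 with 30 rising. The other 3 genes tested with a match, outside the list, did not pass. A match is a description of letters in the window and says nothing of binding. The list was chosen by gene function and includes the unfolded protein response, so its share describes the list rather than a change in these data. The windows of 4 of the 10 members with a match, 3 of them the ER chaperones described above and the fourth the ER degradation gene Derl3, are shown with the ERSE match in capitals, 5′ to 3′ on the gene's strand, at chr2:34771840-34772139 (plus strand) for Hspa5, chr10:86705395-86705694 (minus strand) for Hsp90b1, chr15:88819396-88819695 (plus strand) for Creld2 and chr10:75893148-75893447 (plus strand) for Derl3. Hspa5 carries the letters as written, Creld2 and Derl3 their reverse complement, and Hsp90b1 one of each.
Hspa5: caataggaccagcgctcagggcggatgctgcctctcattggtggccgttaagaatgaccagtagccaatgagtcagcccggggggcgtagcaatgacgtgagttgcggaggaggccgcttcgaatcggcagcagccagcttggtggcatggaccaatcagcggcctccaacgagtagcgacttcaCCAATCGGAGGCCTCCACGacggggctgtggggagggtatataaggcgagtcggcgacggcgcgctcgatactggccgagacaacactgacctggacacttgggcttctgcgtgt
Hsp90b1: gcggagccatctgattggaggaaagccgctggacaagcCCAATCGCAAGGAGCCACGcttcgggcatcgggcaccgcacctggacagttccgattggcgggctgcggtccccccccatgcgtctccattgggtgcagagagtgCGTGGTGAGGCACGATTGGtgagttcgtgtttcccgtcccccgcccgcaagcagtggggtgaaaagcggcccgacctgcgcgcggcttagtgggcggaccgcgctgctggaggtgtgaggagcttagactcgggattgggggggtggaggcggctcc
Creld2: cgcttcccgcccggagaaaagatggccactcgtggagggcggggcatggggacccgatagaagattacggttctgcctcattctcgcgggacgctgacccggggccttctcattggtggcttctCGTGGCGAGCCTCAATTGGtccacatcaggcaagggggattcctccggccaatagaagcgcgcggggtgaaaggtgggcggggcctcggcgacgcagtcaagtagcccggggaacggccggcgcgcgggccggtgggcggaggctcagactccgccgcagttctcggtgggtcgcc
Derl3: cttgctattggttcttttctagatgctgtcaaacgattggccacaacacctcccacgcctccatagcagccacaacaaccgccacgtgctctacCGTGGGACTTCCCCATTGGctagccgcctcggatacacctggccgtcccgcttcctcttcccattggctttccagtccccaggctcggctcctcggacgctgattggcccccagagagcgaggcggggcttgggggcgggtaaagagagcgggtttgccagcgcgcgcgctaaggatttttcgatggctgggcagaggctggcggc

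Genes of the integrated stress response and tRNA charging rose in 25 of 41 tested and fell in 3, with a median of 0.93. Pycr1, a proline synthesis enzyme, measured 1.19, 0, 5.71 and 1.98 CPM in the light zone and 520, 457, 714 and 569 CPM in plasma cells (log2 fold change 7.79, SE 0.40). Slc3a2, the heavy chain of amino acid transporters, rose from 169 ± 38.7 to 2286 ± 112 CPM (3.75), and Asns, asparagine synthetase, rose by 2.25. Ppp1r15a, which restores translation after stress, rose by 3.05, and Atf4, the transcription factor of this response, by 1.07. The 3 falls were Psat1, Farsa and Farsb (-0.88, -0.64 and -0.63), of which the last are the subunits of phenylalanyl tRNA synthetase. The number of falls was 1 without light zone replicate 1 or without light zone replicate 3.

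Most cell division genes tested were lower in plasma cells. Of 44 tested genes of G2/M and mitosis 44 fell, with a median of -3.39, and of 46 genes of DNA replication 43 fell and 0 rose, with a median of -2.48, and the other 3 did not pass. Mki67, the proliferation antigen Ki-67, measured 818, 906, 933 and 980.5 CPM in the light zone and 162, 204, 139.5 and 43.6 CPM in plasma cells (-2.73, SE 0.29, adjusted p = 1.64e-06). Top2a, the topoisomerase that untangles chromosomes, measured 865.5, 836, 858 and 957 CPM in the light zone and 47.6, 61.3, 34.5 and 22.9 CPM in plasma cells (-4.42, SE 0.22, adjusted p = 7.03e-10). Ccnb1, cyclin B1, measured 123, 114, 134 and 91.3 CPM in the light zone and 28.1, 20.4, 8.21 and 2.29 CPM in plasma cells (-3.002, SE 0.38, adjusted p = 9.46e-06). Plasma cell replicate 4 was the lowest for all 3 genes, and the groups did not overlap for any of them. The summed level of the mitosis list was 8932 to 10250 CPM in the light zone and 532 to 1344 CPM in plasma cells, the lowest again in replicate 4. Cdc25c, the phosphatase that starts mitosis, had 0 counts in all plasma cell libraries, at least 39.9-fold lower than its 61.3 ± 12.8 CPM in the light zone. Mcm5, a subunit of the replicative helicase, fell from 371 ± 49.6 to 25.1 ± 11.02 CPM (-3.94).

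The same promoter windows were searched for the cell cycle homology region (CHR), the motif through which the DREAM and MMB complexes act on mitotic genes. The letters TTTGAA, on both strands, were found in 5878 of 32851 windows (17.9%), in 12.4% of the windows of genes tested and in 29 of 39 windows of the mitosis list (74.4%). The 27 tested list members with a match had a median of -3.43 and the 10 without one a median of -3.15. In the DNA replication list TTTGAA was in 17.4% of windows, and TTTGGCGC, a site of E2F factors, in 6 of 46 windows (13.0%). TTTGGCGC was in 0.514% of all windows, in 1.09% of those of genes tested and in 2.25% of those of genes more than 2-fold lower. A 6-letter motif is short and matches many windows. The mitosis list was likewise chosen by gene function, so its share describes the list. The windows of Plk1, a mitotic kinase that fell from 130 ± 23.6 to 11.1 ± 8.79 CPM (log2 fold change -3.60), and Top2a are shown with TTTGAA or its reverse complement in capitals, at chr7:122159185-122159484 (plus strand) and chr11:99024140-99024439 (minus strand).
Plk1: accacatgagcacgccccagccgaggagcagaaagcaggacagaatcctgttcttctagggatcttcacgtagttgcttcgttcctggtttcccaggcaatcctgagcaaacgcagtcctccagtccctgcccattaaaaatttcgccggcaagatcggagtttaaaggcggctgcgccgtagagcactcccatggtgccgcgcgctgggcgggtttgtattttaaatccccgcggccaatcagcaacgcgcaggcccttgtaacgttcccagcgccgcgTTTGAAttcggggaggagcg
Top2a: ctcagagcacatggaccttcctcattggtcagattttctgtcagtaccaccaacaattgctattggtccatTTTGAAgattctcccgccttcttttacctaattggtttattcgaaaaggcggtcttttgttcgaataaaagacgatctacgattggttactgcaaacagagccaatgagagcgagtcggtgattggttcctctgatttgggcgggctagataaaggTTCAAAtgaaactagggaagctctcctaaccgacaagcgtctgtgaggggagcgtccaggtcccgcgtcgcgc

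**Figure D4:**
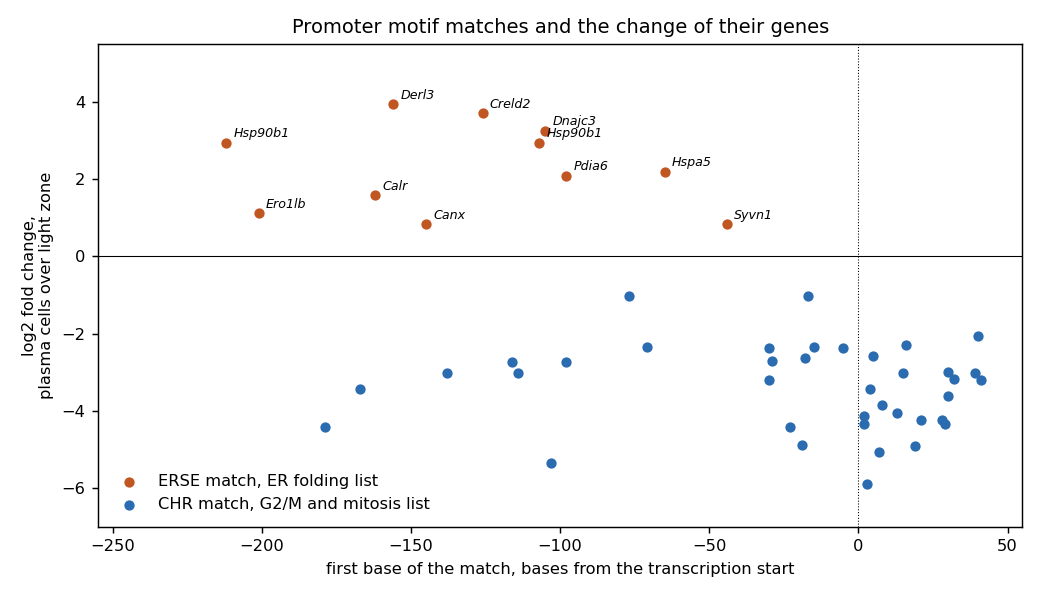
Log2 fold change of each gene against the place of its motif match, in bases from the transcription start, for ERSE matches in the ER folding list (orange, named) and CHR matches in the mitosis list (blue). The ERSE matches lay between -212 and -44, all before the start, and many CHR matches lay near the start or after it.

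Regulators of cell cycle exit were mixed, with 5 of 15 tested higher and 7 lower. Btg2, an antiproliferative gene, rose by 1.77, and its relative Btg1 fell by 1.73 on the log2 scale. Rbl1, a pocket protein made in cycling cells, fell by 2.36, and Rb1, the retinoblastoma gene, rose from 21.9 ± 7.99 to 100.7 ± 22.5 CPM (2.198). Among genes of somatic hypermutation and mismatch repair 14 of 21 tested fell and 0 rose, with a median of -1.27. These included Exo1, an exonuclease of mismatch repair, which fell from 102 ± 26.1 to 2.197 ± 3.06 CPM (-5.52), and Mbd4, a DNA glycosylase (-2.67). MYC targets and ribosome biogenesis genes fell in 37 of 43 tested and rose in 3, with a median of -1.20. Tfrc, the transferrin receptor, fell from 131 ± 18.6 to 18.2 ± 10.2 CPM (-2.86), and Dkc1, a pseudouridine synthase of ribosomal RNA, by 2.03 on the log2 scale. The rises were Odc1 and Srm, which act in polyamine synthesis, and Eif5a (0.54, 0.54 and 0.44). They numbered 1 in thinned libraries and 0 with no filter on low counts.

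Of 20 tested receptors and integrins for positioning 9 rose and 5 fell, with a median of 0.43. Cxcr5, which draws cells to the follicle, measured 219, 251, 243 and 259 CPM in the light zone and 0, 5.11, 18.1 and 9.18 CPM in plasma cells (log2 fold change -4.76, SE 0.37). Ccr10, the receptor for chemokines of mucosal epithelia, measured 186, 115, 200.3 and 94.1 CPM in plasma cells and had 2 counts in the light zone against 294, a ratio of 501 with a counting interval from 137.5 to 4156. Cxcr4, the receptor for Cxcl12, measured 19.6, 37.1, 29.0 and 29.8 CPM in the light zone and 23.8, 51.1, 41.0 and 96.3 CPM in plasma cells (0.86, SE 0.37, adjusted p = 0.0617). Thus Cxcr5 and Ccr10 separated the groups and Cxcr4 did not. Itgal, the alpha chain of LFA-1, rose by 1.90.

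In the BCL2 family 5 of 12 tested genes rose and 3 fell. Bcl2 rose from 24.2 ± 11.3 to 219 ± 44.4 CPM (3.23), Mcl1, on which plasma cells depend downstream of BCMA, from 397 ± 31.0 to 953 ± 144 CPM (1.26), and the proapoptotic Bcl2l11, which encodes BIM, from 31.7 ± 6.06 to 85.9 ± 23.6 CPM (1.43). Bcl2a1d, an NF-kB target, fell by 2.97 on the log2 scale. Members of the Bcl2a1 group are near-identical copies, so their counts are uncertain.

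Among PI3K subunits and regulators 7 of 25 tested were higher and 7 lower, with a median of -0.03. These shares lay near those of all genes tested, 28.1% higher and 28.3% lower with a median of -0.04. The falls numbered 3 without plasma cell replicate 3 and 3 in thinned libraries. Pik3cd, the delta catalytic subunit whose activation the series studies, measured 153, 179, 161 and 151 CPM in the light zone and 102, 130.3, 116.5 and 126 CPM in plasma cells (log2 fold change -0.44, SE 0.16, adjusted p = 0.0283), and it lost its call in 5 of 17 alternatives. Pik3cg, the gamma subunit, measured 52.1, 61.6, 48.0 and 37.7 CPM in the light zone and 251, 340, 274 and 227 CPM in plasma cells (2.44, SE 0.19, adjusted p = 8.04e-08). The groups did not overlap for either subunit, which differed in direction. Foxo3, a transcription factor that AKT inactivates, rose from 7.36 ± 5.47 to 62.8 ± 19.2 CPM (3.16), Rheb, the activator of mTORC1, rose by 1.14, and Inpp5d, the lipid phosphatase SHIP1, fell by 1.49 on the log2 scale.

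Among metabolic genes, 51 of the 71 tested nuclear genes for oxidative phosphorylation rose and one, Ndufs1, fell, with a median of 0.68. Ndufa1, a complex I subunit, rose from 144 ± 34.8 to 452.5 ± 49.95 CPM (1.66). Of 9 mitochondrially encoded transcripts 7 rose and 0 fell, with a median of 0.85, and mt-Cytb, cytochrome b, went from 1174 ± 293.5 to 2675 ± 316.5 CPM (1.19). In a fit over all groups of the series 4 of these transcripts rose. All 9 lay above 0.5 counts per base of exon in at least 1 library, so 0 were left to test without such genes. In mt-Cytb the light zone, with up to 1.68 counts per base and summed counts of 7202, lay nearer to the limit of about 2 than plasma cells, with up to 1.19 and 4991. Glycolysis had 3 rises and 6 falls in 17 tested genes, the falls including Ldha, lactate dehydrogenase, from 486 ± 40.8 to 219.9 ± 17.2 CPM (-1.14). Cholesterol synthesis fell in 15 of 23 tested genes and rose in 2, with a median of -1.20. Hmgcs1, at the entry of that pathway, fell from 114 ± 14.6 to 19.8 ± 10.1 CPM (-2.52), and Ebp rose from 70.9 ± 20.1 to 279 ± 48.4 CPM (1.96).

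Autophagy genes rose in 18 of 30 tested and fell in 5. Wipi1, which binds the lipid of forming autophagosomes, had 0 counts in the light zone and 104, 94.5, 115 and 112 CPM in plasma cells, at least 232-fold higher by the same limit of 3 counts. Sqstm1, the cargo receptor p62, rose by 2.13, Lamp2, a lysosomal membrane protein, from 111 ± 9.37 to 647 ± 79.5 CPM (2.55), and Optn, another cargo receptor, fell from 116 ± 15.9 to 11.9 ± 2.52 CPM (-3.29). Proteasome genes rose in 15 of 36 and fell in 0, with a median of 0.27 and no member past 2-fold. Cytosolic ribosomal protein genes rose in 11 and fell in 11 of 73 tested, with a median of 0.04, and without light zone replicate 4 the rises numbered 18. Many of these genes have processed pseudogenes that share reads with them, so their single values are uncertain.

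**Figure D5:**
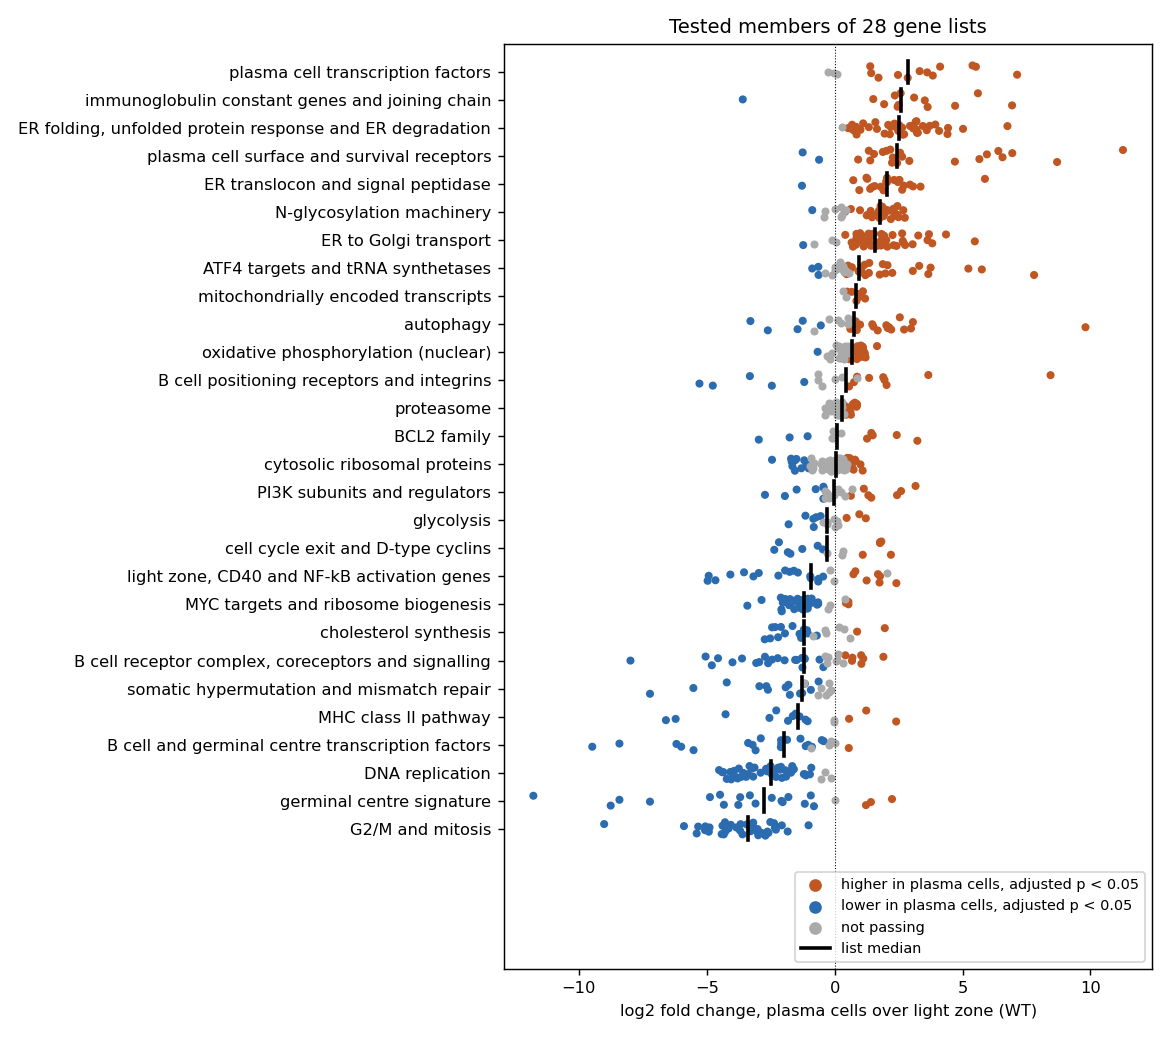
Log2 fold change of every tested member of 28 gene lists, ordered by the list median (black bar), with members that passed the test in orange (higher) or blue (lower) and the others in grey. Plasma cell transcription factors lie at the top with a median of 2.86 and G2/M and mitosis genes at the bottom with -3.39.

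The largest changes took in genes outside these lists. In plasma cells they included Prlr, the prolactin receptor, at 216.5, 209.5, 241 and 213 CPM with 1 count in the light zone, and Il13ra1, a receptor chain for interleukin 13, at 219, 125, 350 and 250.1 CPM with 1 count in the light zone. Fndc3b rose by 9.14 on the log2 scale and Fut1, a fucosyltransferase, had 276 counts in plasma cells against 1. Cox6a2, a subunit of cytochrome c oxidase found mainly in muscle, had 0 counts in the light zone and was at least 183-fold higher in plasma cells, where it measured 77.9, 53.6, 98.5 and 100.9 CPM. Cpeb3, which regulates translation, was at least 139-fold higher, the transporter Slc16a5 at least 129.5-fold, and Gpnmb, a membrane glycoprotein, at least 125-fold. Ly6i had 249 counts against 1, and lies in a family of similar genes. Kcnmb4os2, an antisense transcript, was at least 423-fold higher, but whether counting used the strand is not stated. Among the largest falls, Stil, a gene of centriole duplication, was at least 45.9-fold lower, Lacc1 at least 34.5-fold and Efnb1, a ligand of Eph receptors, at least 31.3-fold, all with 0 counts in plasma cells. Cdca7, Ccdc18 and Nxpe2 had 3, 2 and 1 counts in plasma cells against 1306, 883 and 558.

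Markers of other cells were measured in both groups. Summed T cell markers, 15 genes, measured 366 to 728 CPM in the light zone and 365 to 1055 CPM in plasma cells, the highest in plasma cell replicate 3. Of 8 tested 4 rose and 1 fell, and Cd3g, a chain of the T cell receptor complex, measured 27.3, 18.5, 58.5 and 9.92 CPM in the light zone and 28.1, 63.9, 194 and 57.3 CPM in plasma cells (1.57, SE 0.54, adjusted p = 0.0217). The ranges overlapped, Cd3g lost its call in 6 of 17 alternatives, and the rises of the list numbered 1 without plasma cell replicate 3 and 2 without light zone replicate 1. Myeloid markers, 18 genes, measured 109 to 371 CPM and 105 to 461 CPM, with Elane and Mpo at 0 in both groups. NK cell markers, 9 genes, measured 3.59 to 178 CPM and 50.5 to 110.4 CPM, with Ncr1 and Klre1 at 0 in plasma cells. The sum of 10 dendritic cell markers was 569 to 714 CPM in the light zone and 1824 to 2309 CPM in plasma cells, and most of it came from Cst3 (176 ± 16.9 and 1166 ± 165 CPM), Tcf4 (330.5 ± 32.7 and 484 ± 43.8 CPM) and Bst2 (29.1 ± 10.4 and 299 ± 38.8 CPM), while Clec9a was at 0 in plasma cells. Of 5 dendritic cell markers tested 4 rose and 1 fell, with a median of 2.73, and these counts held with each library left out. The rises were those of Ccr9 (3.66), Bst2 (3.37), Cst3 (2.73) and Tcf4 (0.55), and the fall was that of Flt3 (-1.75). Erythroid and platelet markers, 10 genes, lay between 2.17 and 42.5 CPM in all libraries. The sum of 10 stromal and endothelial markers was 165 to 205 CPM and 387 to 456.5 CPM, mostly Cr1l (145 ± 15.5 and 377 ± 29.9 CPM), with Col1a1, Kdr and Pdgfrb at 0 in both groups. Naive and marginal zone B cell markers, 11 genes, summed to 1459 to 1642 CPM in the light zone and 713 to 1090 CPM in plasma cells. Of these 11 genes 4 rose, by up to 2.43, 4 fell and 3 did not pass, so the lower sum was not shared by all members. The falls included Cr2 (406 ± 80.9 and 24.5 ± 9.61 CPM) and Ighd, given above. The part of any of these cells in the results was not tested.

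The same change was measured in aPIK3CD mice, in 4 plasma cell and 4 light zone libraries of AID-cre aPIK3CD genotype, of which the genotype field of replicate 1 reads WT against its title. The difference of the change between the genotypes passed in 4 of 9881 genes (0.0405%) in a fit over 16 libraries, whose scaling sets the values given here, and 833 genes had an unadjusted p below 0.05. Osbpl3, a lipid transfer protein, measured 33.3 ± 6.84 CPM in the light zone and 69.99 ± 15.9 CPM in plasma cells of WT mice, and 28.5 ± 7.71 and 7.90 ± 0.459 CPM in aPIK3CD mice (difference of the log2 changes -2.92, SE 0.44, adjusted p = 0.0168). Pdxdc1 went from 39.3 ± 4.57 to 72.0 ± 6.87 CPM in WT and from 30.7 ± 6.61 to 162.9 ± 13.4 CPM in aPIK3CD (1.51, SE 0.26, adjusted p = 0.0323). Oosp1 went from 0.926 ± 0.852 to 452 ± 63.9 CPM in WT and from 9.20 ± 3.45 to 498 ± 71.4 CPM in aPIK3CD (-2.97, SE 0.50, adjusted p = 0.0323). The Oosp1 ranges of the genotypes overlapped in plasma cells and did not overlap in the light zone, at 0 to 2.03 CPM in WT and 6.27 to 13.5 CPM in aPIK3CD. The kappa segment Igkv3-4 went from 25.4 ± 10.8 to 947 ± 103.5 CPM in WT and from 8.21 ± 10.6 to 13.9 ± 7.95 CPM in aPIK3CD (difference of the log2 changes -4.50, SE 0.79, adjusted p = 0.0345). The number of such genes was 0 without WT plasma cell replicate 1 or 2, without WT light zone replicate 1 or without aPIK3CD plasma cell replicate 1, and 0 with the replicates 1 of aPIK3CD counted as WT, but 32 with DESeq2. Of 22 alternatives Osbpl3 passed in 17, Oosp1 in 9 and Pdxdc1 and Igkv3-4 in 7 each.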

How the data were processed

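RNA was measured by bulk RNA-seq. The deposited table holds raw read counts per gene, made with STAR 2.4.2a, HTSeq and Picard per the submitters' processing notes. The authors' genome build, strand setting and treatment of duplicate reads are not given in the sources used here. Genes without a name held 0.173% of counts. They were not removed before the tests but were left out when the largest changes were picked.

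WT plasma cells and light zone cells were compared with edgeR 4.0.16 in R 4.3.3 (TMM, filterByExpr with minimum count 10 and minimum total 15, two-sided quasi-likelihood F test, no covariates, Benjamini-Hochberg adjustment over all 9037 genes). The SE was taken from the F statistic (log2 value over root F). CPM are relative to TMM-scaled library sizes of the 8 libraries. Counts per exonic base use GENCODE M21 exon lengths. Their highest value and the numbers of genes above 1 per library leave out very short genes. Counting intervals (95%) and floors (3 counts over a group) describe counting error alone, because the reads carry no molecular identifiers. Counts were also simulated with these library sizes and a fixed spread, and 9082 genes were fitted. Among 200 changed genes, drawn from well-expressed genes only, 76% of 2-fold and 100% of 4-fold changes were recovered, with 7 false calls. Far more genes changed in the data, so recovery among so many changes, or for genes of low counts, was not tested.

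The comparison, the 28 gene lists and the 7 marker lists were chosen with earlier results of these data known. Named genes were the 12 largest changes per direction with at least 50 CPM in the higher group and no overlap, the core genes of each list, the 4 members per list with the smallest p, and the genotype interaction genes. Genes outside this rule (single members against their list, Ighe, Ighd, variable segments, Plk1, Rb1 and the marker genes) were picked with their values in view. Some items are not reported here. Alternative settings were DESeq2 1.42.0, its size factors, limma 3.58.1 voom with quality weights, no filter, immunoglobulin genes left out, thinning, a replicate block, a fit over all groups and each library left out. The removal of genes above 0.5 counts per exonic base was added after seeing the data.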

Additional observations from a re-analysis of the deposited data

Results flagged for a closer look

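A single library lay far from the other 3 of its group, by the ratio of its gap to the group's range, in 10 of 296 groups of 4 values examined, and chance alone gives about 1 in 20. In plasma cells replicate 2 these were Irf4 at 1280 CPM (others 907 to 964), Cd86 at 30.7 CPM (others 0 to 4.92), Slc3a2 at 2120 CPM (others 2323 to 2363) and Psma2, a proteasome subunit, at 628.5 CPM (others 595 to 599). In plasma cells replicate 4 they were Tnfrsf17 at 566.6 CPM (others 704 to 719) and Osbpl3 at 45.9 CPM (others 72.2 to 76.6). In light zone replicate 4 they were Nfkbia at 385 CPM (others 431 to 440.2), Rel at 287 CPM (others 236 to 244) and Rpl12 at 56.6 CPM (others 34.4 to 37.1). In light zone replicate 2 the gene was Bcl2l11 at 40.7 CPM (others 27.8 to 29.6). In none of these genes did this value bring the groups together.

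The change from light zone to plasma cells differed between aPIK3CD and WT by the interaction test in 4 genes, with log2 differences of 1.51 for Pdxdc1, -2.92 for Osbpl3, -2.97 for Oosp1 and -4.50 for Igkv3-4.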

How the results depend on the processing

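Of 160 named genes that passed, 156 lost the call in none of the 17 alternatives in which they were tested (at least 15 each), a missing adjusted p counting as no loss. Of the 160, 0 changed sign, while Pik3cd, Cd3g, Pdxdc1 and Osbpl3 lost the call in at least 1. Many named genes were picked by the size or p of their change in these data, so this stability does not speak for all 5096 calls. The number of genes changed was 5096 and ranged from 4017 in thinned libraries to 6131 with no filter, and it was 4759 to 5184 with 1 library left out; the number past 2-fold was 3518 and ranged from 2978 to 4814, and 3514 to 3714 with 1 left out. With no filter the median of the shared genes shifted by -0.11. Of 475 list medians 50 moved by more than the spread between libraries. The log2 fold change of Ighe was -3.37 without plasma cell replicate 1 and up to 5.49 with another library left out, 0.34 with voom weights (adjusted p = 0.873) and 2.17 with the replicate block (adjusted p = 0.178). The immunoglobulin share of counts differed by 9.435 to 10.25 percentage points with 1 library left out, at an exact permutation p of 0.0571, the smallest 3 against 4 allows. The genotype interaction count of 4 was 32 with DESeq2, 139 with no filter, 0 with the replicates 1 of aPIK3CD counted as WT and 0 to 6 with 1 library left out.

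The labels number the replicates alike in both groups without saying what a number marks. Deviations of libraries with the same number correlated at 0.065, 0.010, 0.106 and -0.00095, so the numbers were not taken as pairs, and 3 of 4 light zone libraries correlated best with their own number. With the replicate block 5297 genes passed, 3879 of them past 2-fold, and 4 interaction genes. Depth limits the genes that are low in plasma cells, whose libraries held 473149 to 704361 counts.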
